A study of Mus musculus with 4 samples.

Results

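A set of 10 spliced non-coding genes that carry small nucleolar RNAs (snoRNAs) in their introns was examined: Gas5, Snhg1, Snhg3, Snhg4, Snhg5, Snhg6, Snhg8, Snhg12, Snhg15 and Snhg20. They were chosen by name, and all 10 were found among the 16449 genes of the count table. The libraries came from the dorsal and medial palliums, the forebrain wall that forms the neocortex and hippocampus, of mouse embryos at E11.5, a mid-gestation stage, and their polyadenylated RNA was read as long reads on a Nanopore sequencer. Wild-type (WT) embryos gave 2 libraries, and 2 more carry the label Tut1 knockout (the knockout-labelled libraries), in which Emx1-Cre, active in pallial neural stem cells, recombines a floxed Tut1 allele (Tut1 f/f;Emx1-Cre). By the sequencing statistics of the study both groups are homozygous for the floxed allele, so that WT embryos lack Cre. How many embryos each library holds is not stated. Tut1 encodes an enzyme that lengthens U6 snRNA, a core RNA of the spliceosome, by uridines at its 3′ end, and the comparison asks how these spliced hosts stood when it was targeted.

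SnoRNAs guide chemical modification of ribosomal RNA. Box C/D snoRNAs direct ribose methylation through a complex with the methyltransferase fibrillarin, and H/ACA snoRNAs direct pseudouridylation through dyskerin. In mammals most of them are cut from introns after splicing, so that a host gene must be transcribed and spliced to release them. The joined exons of a non-coding host often hold no useful reading frame, and for several hosts, Gas5 and Snhg1 among them, they are known to be removed in the cytoplasm by nonsense-mediated decay. The level of a spliced host thus depends on transcription, splicing and decay, and is no measure of the snoRNA itself.

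The mouse annotation (GENCODE M21, GRCm38) placed 31 snoRNA loci in introns of the 10 hosts, 9 of them in Gas5, 8 in Snhg1, 4 in Snhg12, 2 each in Snhg3, Snhg4 and Snhg5, and 1 each in Snhg6, Snhg8, Snhg15 and Snhg20. The sequences of a few, read 5′ to 3′ on the host's strand, show what the introns release. The first 4 are box C/D snoRNAs from hosts described below, with capitals on the C box (TGATGA, starting within the first 16 bases) and the D box (CTGA, in the last 15 bases). Snora9, the cargo of Snhg15, and Snora24, the cargo of Snhg8, are H/ACA snoRNAs with capitals on the ACA box near the 3′ end.
Snord47 (in Gas5): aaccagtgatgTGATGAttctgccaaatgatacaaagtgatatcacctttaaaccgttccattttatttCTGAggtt
Snord50a (in Snhg5): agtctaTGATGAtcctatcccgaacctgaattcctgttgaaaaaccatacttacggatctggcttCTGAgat
Snord50b (in Snhg5): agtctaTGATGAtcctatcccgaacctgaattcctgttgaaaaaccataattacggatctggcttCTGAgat
Snord87 (in Snhg6): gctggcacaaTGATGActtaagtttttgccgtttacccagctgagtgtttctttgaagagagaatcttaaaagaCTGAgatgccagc
Snora9 (in Snhg15): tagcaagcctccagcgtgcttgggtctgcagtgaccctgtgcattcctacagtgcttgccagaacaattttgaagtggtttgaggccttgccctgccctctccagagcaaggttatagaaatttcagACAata
Snora24 (in Snhg8): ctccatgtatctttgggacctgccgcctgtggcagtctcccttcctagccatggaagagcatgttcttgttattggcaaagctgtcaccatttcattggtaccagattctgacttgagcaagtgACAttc
These lie at chr1:161038082-161038158 (plus strand), chr9:88521529-88521600 (minus), chr9:88521797-88521868 (minus), chr1:9942463-9942549 (minus), chr11:6528033-6528165 (minus) and chr3:123507937-123508066 (minus), all intronic. The pair in Snhg5 differed at a single base, C50A, counted from 1 at the 5′ end of Snord50a.

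By these letters 16 of the 31 loci held both C and D boxes, 8 held an ACA box, and 7 held neither. Over all 1558 annotated snoRNAs and small Cajal body RNAs (scaRNAs) the same search found C and D boxes in 19.9% and an ACA box in 42.7%. All the loci with C and D boxes except 1 lay in Gas5, Snhg1, Snhg5 and Snhg6, and the exception was Snord99 in Snhg12. Their 3′ ends lay a median of 74 nucleotides (nt) before the 3′ splice site, with a range of 65 to 313 nt. The median over all 183 intronic box C/D entries of the annotation was 383 nt. Those entries include the hosts' own and were not merged by locus, so the medians are not directly comparable. Short spacing was not confined to box C/D loci. Of the 8 loci with an ACA box, Snora24, Snora73a, Snora73b and Snora61 lay 74, 76, 78 and 81 nt away. Snora74a, Snora16a, the scaRNA in Snhg20 and Snora9 lay 109, 237, 407 and 1595 nt away. The spacing is given here as a feature of the annotation, since splicing was not analysed here.

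**Figure D1:**
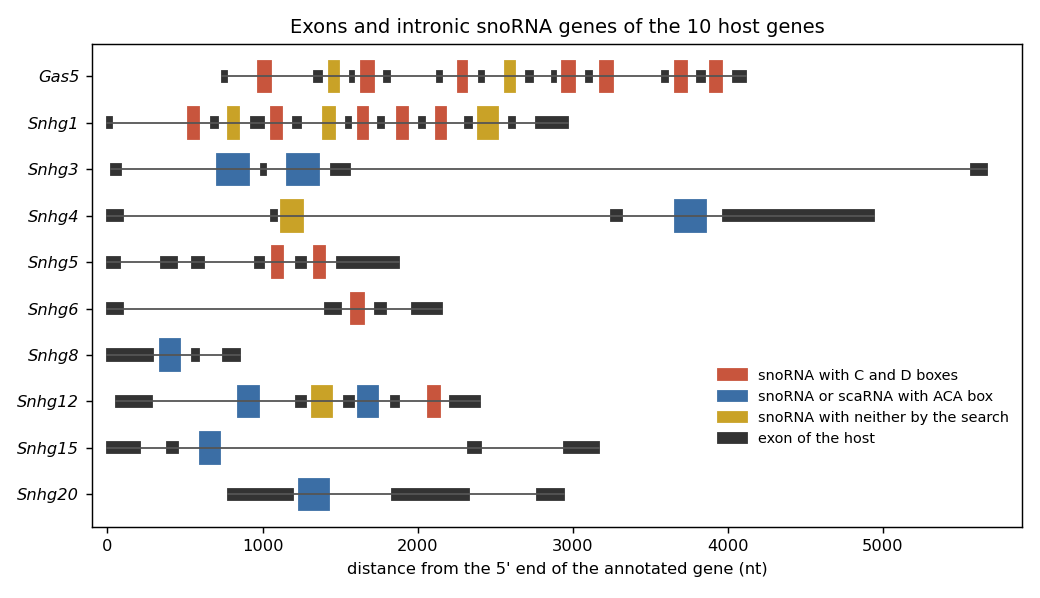
Annotated structure of each host, with the distance from the 5′ end of the gene in nt on the x axis, drawn to scale. Black boxes are exons of the transcript with the most exons, and coloured boxes are intronic snoRNA genes by box type. Gas5 and Snhg1 hold 9 and 8 snoRNAs, mostly 1 per intron, while Snhg15 holds a single one in an intron of 1868 nt.

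Transcripts of several hosts are known to start, like those of ribosomal proteins, with a C followed by a run of pyrimidines (a terminal oligopyrimidine tract, TOP), which ties their use to growth signals. Windows of 15 bases on each side of annotated RefSeq starts (GRCm38.p6) were searched, on the gene's strand, for a C followed by at least 4 bases that are C or T, shown in capitals.
Gas5, start at 161035166: agccgccatctcagCCTTTCggagctgtgc
Snhg12, start at 132308678: ggccgttctcagtCCTTTCTCgcttcatcc
Snhg8, start at 123508336: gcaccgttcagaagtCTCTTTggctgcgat
Snhg15, start at 6528760: cgctgctgtgaccgtaactttaagcacacg
These windows are chr1:161035151-161035180 (plus strand), chr4:132308663-132308692 (plus), chr3:123508322-123508351 (minus) and chr11:6528746-6528775 (minus). A run was found for 5 of the 8 hosts with a window, Gas5, Snhg3, Snhg5, Snhg8 and Snhg12, and not for Snhg1, Snhg15 and Snhg20. By windows it was 5 of 9, since a second annotated start of Gas5, at 161034601, held none, and 36.4% of all 32851 windows held one. Over all 27025 genes with a window 40.3% held such a run, and over 68 ribosomal protein genes 63.2%. The search took a run anywhere in a window, so a run found need not be a TOP. A run not found does not show that a host lacks one. No window of Snhg4 or Snhg6 was used.

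Total counts were few, from 305642 to 397150 per library. The sequencing statistics of the study list many more reads per library than this, and what became of the rest is not known here. The whole-gene count of Tut1 was 6 and 11 in WT against 29 and 25 in the knockout-labelled libraries, higher in the latter by 1.71 ± 0.40 (SE) on the log2 scale (adjusted p = 0.0113 by edgeR). The call was lost without WT replicate 1 (edgeR adjusted p = 0.133), replicate 1 labelled knockout (0.200) or replicate 2 labelled knockout (0.160). A count over the whole gene does not show whether the floxed exon was present and so does not check the labels, which directions below follow. WT replicate 1 was the only library with Xist counts (64, against 0 in each of the others), which marks it as the only library with RNA of a female embryo. Of the pallial markers, Lhx2 had 348 and 272 counts in WT against 106 and 106 in the knockout-labelled libraries, Pax6 had 137 and 119 against 132 and 93, and Emx1 had 6 and 7 counts in WT against 1 and 2. Levels are in CPM, here counts scaled by TMM to the summed counts of the tested genes, which held 92.2% to 93.5% of each library. The 7 tested pallial progenitor markers summed to 1924 to 2151 in WT and 1281 to 1407 in the knockout-labelled libraries, mostly through Lhx2, since the other 6 summed to 1097 to 1165 and 999 to 1038. Several further marker lists moved with the groups: 10 neuron markers summed to 1369 to 1384 in WT and 2001 to 2222 in the knockout-labelled libraries, 10 proliferation markers at 3818 to 4434 and 2836 to 3102, 10 microglia markers at 106 to 109 and 351 to 412, 9 mesenchyme markers at 133 to 338 and 431 to 614, 10 endothelial markers at 233 to 257 and 386 to 412, and 9 GABAergic markers at 15.1 to 81.0 and 104 to 205. The sum of 9 red cell markers did not separate the groups, at 1384 and 1869 CPM in WT against 2309 and 1521 in the knockout-labelled libraries. Of the defining microglia markers, C1qa, Trem2 and Fcer1g were at 0 in both WT libraries and at 3 counts or fewer elsewhere. Their part in the values below was not tested, and in bulk tissue fewer cells of a type and less RNA per cell cannot be told apart.

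The 10 hosts held little of each library but for Gas5. Together they took 619 and 717 counts in the WT libraries (replicates 1 and 2) against 648 and 477 counts in the knockout-labelled libraries, between 0.156% and 0.183% of all counts. Gas5 alone made up 71.3% to 75.3% of these counts. By mean CPM over the 4 libraries it ranked 78th of 16449 genes and was at rank 3 of 1165 long non-coding RNA genes. Snhg5 and Snhg1 ranked 907th and 1117th of all genes, and the remaining 7 ranked between 3964th (Snhg4) and 10140th (Snhg8). The summed level of the 10 hosts was 1875 and 2003 CPM in WT against 1722 and 1657 CPM in the knockout-labelled libraries. Without Gas5 it was 463 and 570 CPM in WT against 494 and 465 CPM in the knockout-labelled libraries, and the groups overlapped.

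In long reads a read can stand for a whole transcript, so that the order of levels was taken both per kilobase (kb) of median annotated transcript length and in plain CPM. Per kb the order in WT was led by Gas5 at 2261 ± 23.99 CPM per kb (mean ± SD, n = 2). Snhg1 at 303 ± 109 and Snhg5 at 223 ± 16.9 CPM per kb followed and did not differ beyond their spread. Then came Snhg6 at 62.1 ± 11.1, Snhg3 at 50.1 ± 7.57 and Snhg4 at 41.1 ± 0.876 CPM per kb, of which Snhg6 and Snhg3 overlapped within 1 SD. Snhg20, Snhg12, Snhg15 and Snhg8 lay lowest, between 10.8 and 16.9 CPM per kb, and none of these neighbours differed beyond its spread. In the knockout-labelled libraries Gas5 again led, at 1923 ± 41.0 CPM per kb, ahead of Snhg5 at 240 ± 26.5 and Snhg1 at 228 ± 11.2. Snhg15 stood at rank 9 in WT, at 14.8 ± 7.73 CPM per kb, and at rank 4 in the knockout-labelled libraries, at 62.5 ± 6.08. There Snhg15 overlapped with Snhg6 at 45.3 ± 23.8 and with Snhg3 at 39.3 ± 21.8. In plain CPM the order differed below Gas5. In WT Snhg5 (186 ± 14.02 CPM) and Snhg1 (183 ± 65.6) were level within their spread, and Snhg4 (52.3 ± 1.11) lay above Snhg6 (34.7 ± 6.23) and Snhg3 (21.9 ± 3.31), with no overlap within 1 SD. Snhg15 was again at rank 9 in WT (8.85 ± 4.62 CPM) but at rank 5 in the knockout-labelled libraries (37.3 ± 3.63), where it overlapped with Snhg4 (39.4 ± 3.16) and Snhg6 (25.3 ± 13.3). The order per kb assumes the annotated lengths, since which isoforms were counted is not known here.

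**Figure D2:**
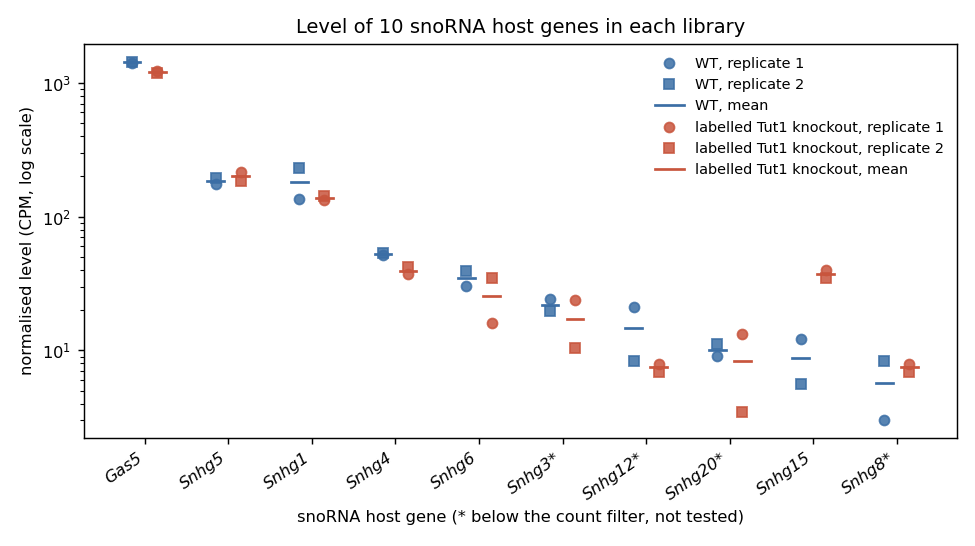
Normalised level in CPM (log scale) of each host gene in each of the 4 libraries, with WT in blue, libraries labelled Tut1 knockout in red, circles for replicate 1, squares for replicate 2 and bars for group means. Gas5 lies between 1191 and 1433 CPM in every library, and Snhg15 is the only host whose knockout-labelled libraries both lie well above both WT libraries.

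Of the 10 hosts, 6 had enough counts to be tested: Gas5, Snhg1, Snhg4, Snhg5, Snhg6 and Snhg15. None of these 6 was called by edgeR's quasi-likelihood test over 5878 genes at an adjusted p below 0.05, where 2.06% of all tested genes were called, 1.40% higher and 0.663% lower. The count was also 0 by limma-voom and by DESeq2, although DESeq2 gave no adjusted p for Snhg4, Snhg6 and Snhg15. At an unadjusted p below 0.05 there was 1, Snhg15, beside 14.2% of all tested genes. Of the 6, 4 had a log2 fold change below 0 and 2 above, with a median of -0.32 against -0.014 over all tested genes, of which 51.6% lay below 0. That median was -0.12 without WT replicate 2 and -0.13 without replicate 1 labelled knockout. The CPM of the 2 groups did not overlap for 3 of the 6, Gas5 and Snhg4 lower and Snhg15 higher in the knockout-labelled libraries. That compares with 42.9% of all tested genes, 22.1% higher and 20.8% lower.

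Gas5 (growth arrest specific 5; ENSMUSG00000053332, chr1:161034422-161038539, plus strand, up to 12 exons) is known as a transcript that builds up when cells stop growing or translation is blocked. Its counts were 466 and 513 in WT against 462 and 343 in the knockout-labelled libraries. After scaling these gave 1412 and 1433 CPM in WT against 1228 and 1191 CPM in the knockout-labelled libraries, so that both of the latter were lower while replicates of a group lay close together. The log2 fold change was -0.23 ± 0.13 (SE; 95% interval -0.49 to 0.02), or 0.851-fold, with adjusted p = 0.415 by edgeR. The interval leaves room for anything from a fall to 0.714-fold up to a level 1.01-fold that of WT, the narrowest range of the 6. On the opposite strand Gas5 overlaps Zbtb37, which had 4 and 6 counts in WT against 1 and 4 in the knockout-labelled libraries, far fewer than Gas5. Leaving out any library gave -0.26 to -0.21, and WT replicate 1, the female library, made no large difference here (-0.25 without it). With scaling by total counts only the log2 fold change was smaller in size, at -0.17.

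Snhg1 (ENSMUSG00000108414, chr19:8723475-8726443, plus strand, up to 10 exons) is the host of Snord22 and of 7 further snoRNA loci. Its counts were 45 and 82 in WT against 50 and 41 in the knockout-labelled libraries, equal to 136 and 229 CPM against 133 and 142 CPM. WT replicate 2 stood high, and WT replicate 1 lay between the knockout-labelled libraries, so that the groups overlapped. The log2 fold change of -0.42 ± 0.26 (SE; 95% interval -0.94 to 0.10; edgeR adjusted p = 0.506) rested on WT replicate 2, since it was -0.0015 without that library and -0.75 without WT replicate 1.

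Snhg5 (ENSMUSG00000097195, chr9:88521050-88522929, minus strand, up to 6 exons), host of the Snord50 pair printed above, had 58 and 70 counts in WT against 81 and 53 in the knockout-labelled libraries. Its levels of 176 and 196 CPM against 215 and 184 CPM interleaved. The log2 fold change was 0.11 ± 0.23 (SE; 95% interval -0.35 to 0.57; edgeR adjusted p = 0.892), which holds a change of between 0.785-fold and 1.49-fold. Its sign turned without replicate 1 labelled knockout (-0.014).

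Snhg4 (ENSMUSG00000117869, chr18:35553371-35558316, plus strand), host of Snora74a, bears another name in the annotation used here and was matched through its RefSeq transcript. It had 17 and 19 counts in WT against 14 and 12 in the knockout-labelled libraries, or 51.5 and 53.1 CPM against 37.2 and 41.7 CPM. Both knockout-labelled libraries lay lower, by a log2 fold change of -0.41 ± 0.39 (SE; 95% interval -1.20 to 0.38; edgeR adjusted p = 0.707). Snhg4 shares exons on the same strand with the protein-coding gene Gm28285, which held 134 and 99 counts in WT against 127 and 82 in the knockout-labelled libraries, so that reads of the pair could be exchanged and the level of Snhg4 is uncertain.

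Snhg6 (ENSMUSG00000098234, chr1:9941959-9944118, minus strand), host of Snord87, had 10 and 14 counts in WT against 6 and 10 in the knockout-labelled libraries. At 30.3 and 39.1 CPM against 15.9 and 34.7 CPM the groups overlapped, and replicate 1 labelled knockout was the low one. The log2 fold change was -0.52 ± 0.50 (SE; 95% interval -1.53 to 0.49; edgeR adjusted p = 0.718), and without replicate 1 labelled knockout it was -0.0050. Without replicate 2 labelled knockout it was -1.11.

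Snhg15 (ENSMUSG00000085156, chr11:6525591-6528760, minus strand, up to 4 exons), host of Snora9, had the largest fold change of the hosts tested and the fewest counts. They were 4 and 2 in WT against 15 and 10 in the knockout-labelled libraries. In CPM this was 12.1 and 5.59 against 39.9 and 34.7, and the groups were well apart. The log2 fold change was 2.06 ± 0.62 (SE; 95% interval 0.80 to 3.32), or 4.17-fold with an interval of 1.75 to 9.97, with adjusted p = 0.0694 by edgeR. It ranked 166th by p among the tested genes, of which the first 121 were called. The gene passed the count filter only through the knockout-labelled libraries, so that being tested already favoured a higher level there. Exact 95% Poisson intervals, for counting error only, were 1.09 to 10.2 and 0.242 to 7.23 counts in WT and 8.40 to 24.7 and 4.80 to 18.4 counts in the knockout-labelled libraries, and that of WT replicate 1 overlapped those of both knockout-labelled libraries, that of WT replicate 2 only the lower of them. As the groups did not overlap, leaving out 1 library could hardly turn the direction. The direction was kept in all 12 alternative settings, from 1.59 without WT replicate 2 to 2.67 without WT replicate 1. In none of them was Snhg15 called: its adjusted p ran from 0.0626 with total counts only to 0.531 without replicate 1 labelled knockout, and DESeq2 gave none.

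**Figure D3:**
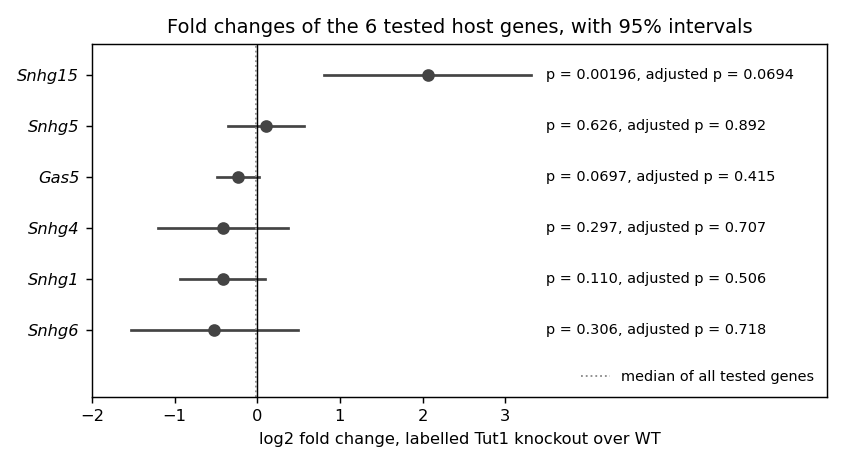
Log2 fold change (labelled Tut1 knockout over WT, n = 2 each) of the 6 tested hosts by edgeR, with points for estimates and lines for 95% intervals. The interval of Snhg15 (0.80 to 3.32) lies above 0, those of the other 5 include 0, and no adjusted p is below 0.05.

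The other 4 hosts fell below the count filter and were not tested. Snhg3 (ENSMUSG00000085241, chr4:132348014-132353686, minus strand), host of Snora73a and Snora73b, which take part in processing of the ribosomal RNA precursor, had 8 and 7 counts in WT against 9 and 3 in the knockout-labelled libraries. It shares its strand and part of its span with Rcc1, which encodes the nucleotide exchange factor of Ran and had 20 and 26 counts in WT against 26 and 14 in the knockout-labelled libraries, so that its counts are uncertain too. Snhg12 (ENSMUSG00000086290, chr4:132308623-132311024, plus strand), host of 3 H/ACA loci by annotated name and of Snord99, had 7 and 3 counts in WT against 3 and 2 in the knockout-labelled libraries. Its levels of 21.2 and 8.38 CPM against 7.97 and 6.95 CPM did not overlap, but WT replicate 2 and replicate 1 labelled knockout both had 3 counts.

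Snhg20 (ENSMUSG00000086859, chr11:117076008-117078955, plus strand), host of a scaRNA, had 3 and 4 counts in WT against 5 and 1 in the knockout-labelled libraries. Snhg8 (ENSMUSG00000104960, chr3:123507552-123508404, minus strand), host of Snora24, had 1 and 3 counts in WT against 3 and 2 in the knockout-labelled libraries. Fitted without a count filter, the log2 fold changes of these 4 were -0.27 for Snhg3, -0.92 for Snhg12, 0.36 for Snhg8 and -0.17 for Snhg20, with edgeR adjusted p from 0.862 to 0.976.

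Mature snoRNAs carry no poly(A) tail, and they were almost absent from these libraries. Of the 33 snoRNA entries in introns of the 10 hosts, only Snord87 had a row in the count table, with 1 count in WT replicate 1. The table held 139 snoRNA and scaRNA rows in all, of which 87 had at least 1 count and 1, Gm22711, was tested, with 54 and 86 counts in WT against 78 and 66 in the knockout-labelled libraries. No other such row summed to more than 20 counts. Of the 89 annotated transcripts of the 10 hosts, 43 are marked as retained intron, 20 of 25 in Gas5 and 14 of 18 in Snhg1. A retained intron and a joined one give the same gene count, so these data do not separate them.

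Other genes of the same biology were read from the same fit. Of 14 further non-coding hosts listed, 11 were in the table and 4 were tested, with 0 called by edgeR, 1 at an unadjusted p below 0.05 and a median log2 fold change of -0.03. The smallest p values were those of 1110038B12Rik, with 49 and 45 counts in WT against 30 and 31 in the knockout-labelled libraries (-0.56 ± 0.28 SE, adjusted p = 0.341), and of Snhg17 (-0.15 ± 0.32, adjusted p = 0.895). Over all 13 tested non-coding genes that the annotation gives an intronic snoRNA, which include members, 0 were called, 2 had an unadjusted p below 0.05 and the median was -0.15. Of 173 tested protein-coding hosts, 3 were called by edgeR, and the median was -0.08. They were Rps20, a small-subunit ribosomal protein, which fell by 0.36 on the log2 scale (adjusted p = 0.00461), Mpped2, which fell by 1.00 (adjusted p = 0.00926), and Rpl17, a large-subunit ribosomal protein, which rose by 0.66 (adjusted p = 0.0279). The same Rps20 and Rpl17 were the 2 called among 84 tested ribosomal protein genes, whose median was -0.12, and reads of such genes can be exchanged with their processed pseudogenes. With a library left out Rpl17 was called in 0 of 4 fits (edgeR adjusted p from 0.0851 to 0.278), Rps20 only without WT replicate 1 (0.00200, otherwise up to 0.166), and Mpped2 not without WT replicate 1 (0.0750) or replicate 1 labelled knockout (0.387).

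The proteins that bind and mature snoRNAs showed no called change either. Of 18 listed core proteins and assembly factors, 12 were tested, 0 were called by edgeR, 3 had an unadjusted p below 0.05, and the median log2 fold change was -0.29. Nop56, a core box C/D protein, had 143 and 125 counts in WT against 106 and 74 in the knockout-labelled libraries (-0.53 ± 0.19 SE, adjusted p = 0.149). Its partner Nop58 had 300 and 287 counts in WT against 255 and 196 in the knockout-labelled libraries (-0.33 ± 0.15, adjusted p = 0.275). Of 14 nonsense-mediated decay and decapping factors, 8 were tested, with 0 called, 0 at an unadjusted p below 0.05 and a median of 0.14. The smallest p values were those of Upf2, a bridge of the surveillance complex (0.42 ± 0.42 SE, adjusted p = 0.725), and Dcp2, the decapping enzyme (-0.27 ± 0.28, adjusted p = 0.749). Among 124 tested long non-coding RNA genes 6 were called, 1 higher and 5 lower, with a median of -0.11. They were led by Dlx1as, with no count in WT and 31 and 19 in the knockout-labelled libraries, through which alone it passed the count filter, Gm3764 with 216 and 259 against 96 and 93, and E330013P04Rik with 35 and 47 against 9 and 9. All 3 calls were lost without replicate 1 labelled knockout (edgeR adjusted p from 0.0602 to 0.166) and kept without any other library.

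**Figure D4:**
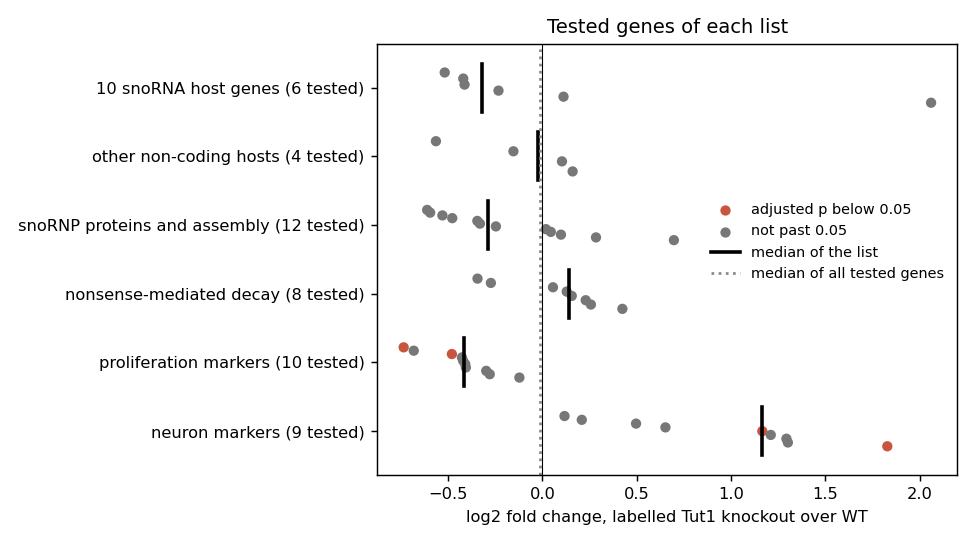
Log2 fold change of each tested gene in 6 lists, with a black bar at the median of each list, red for an adjusted p below 0.05 and grey for the rest. No gene is red among the 10 hosts, other hosts, snoRNA-binding proteins or decay factors, and 2 each are red among the proliferation markers (lower) and the neuron markers (higher).

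Cell-type markers gave these calls by edgeR in the same fit. Of 9 tested neuron markers 2 rose, Mapt by 1.83 and Dcx by 1.17 on the log2 scale, with a list median of 1.17, although 1 of the 9, Gap43, reached the count filter only in the knockout-labelled libraries. Of 10 proliferation markers 2 fell, Mki67 by 0.74 and Cenpf by 0.48, with a median of -0.42. Of 10 microglia markers 4 were tested and called higher, among them Cx3cr1, Aif1 and Csf1r by 2.33, 2.02 and 1.39, but 3 of the 4 (all but Csf1r) reached the count filter only in the knockout-labelled libraries. Called higher too were Dlx1 of 2 tested GABAergic markers (2.59) and Col1a2 and Col5a1 of 5 tested mesenchyme markers (2.12 and 1.25). Both tested GABAergic markers and 2 of the 5 mesenchyme markers, Dlx1 and Col1a2 among them, likewise reached the filter only in the knockout-labelled libraries. Being tested thus favoured a higher level in these lists. Lhx2 of 7 pallial progenitor markers fell by 1.49 (median -0.14, with Fabp7 reaching the filter only in the knockout-labelled libraries). Hbb-bh1 of 6 red cell markers fell by 1.80, while 4 of those 6 lay above 0 and their median was 0.29. Of 3 tested endothelial markers, of which Pecam1 reached the filter only in the knockout-labelled libraries, none was called and 1 had an unadjusted p below 0.05 (Egfl7, 0.68, adjusted p = 0.149; Pecam1, 0.76, adjusted p = 0.489). Without replicate 1 labelled knockout Mapt alone of the markers named here was still called (edgeR adjusted p = 0.0295). Cenpf was called in 0 of 4 fits with a library left out. Mki67, Dlx1, Csf1r, Col1a2 and Col5a1 were called only without WT replicate 2, Hbb-bh1 only without WT replicate 1, and Dcx was also lost without replicate 2 labelled knockout (0.0899).

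The pattern of the summed hosts over the 4 libraries, which is mainly that of Gas5, was compared with 1245 genes of at least 50 counts on average. The nearest by root mean square distance of centred log2 CPM were Pcm1, which encodes a protein of centriolar satellites, at 0.0239, Fdft1, the squalene synthase, at 0.0319, and Rpl41, a ribosomal protein, at 0.0338. Pcm1 had 147 and 173 counts in WT against 151 and 110 in the knockout-labelled libraries. With 4 libraries and so many genes, such nearness is a description only.

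**Figure D5:**
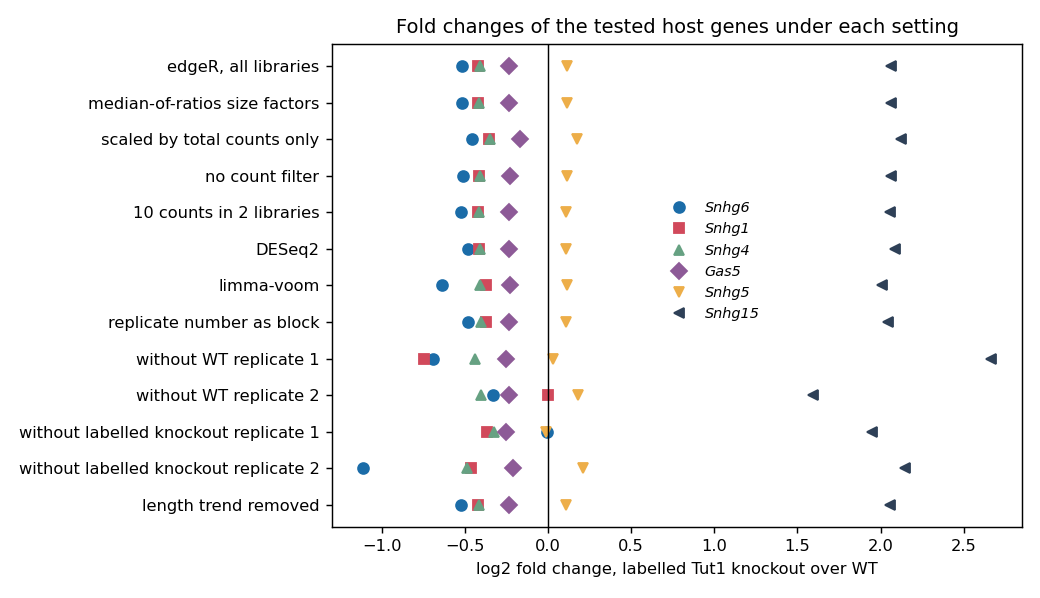
Log2 fold change of the 6 tested hosts under the main settings (top) and each of 12 alternatives. Gas5 and Snhg4 stay below 0 and Snhg15 stays above 0 throughout, a weak check, as their groups do not overlap in CPM. Snhg1 and Snhg6 come close to 0 and Snhg5 passes it when 1 library is left out.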

How the data were processed

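The deposited table holds raw gene counts from Nanopore reads of poly(A)-enriched RNA. The authors aligned reads to the Ensembl mouse transcriptome with minimap2 and used FLAIR; the labels give GRCm38. How counts were summed per gene, and whether strand was used, is not given in the sources used here. Total counts were 361003 and 392579 (WT) and 397150 and 305642 (labelled Tut1 knockout), so a gene of few counts has wide intervals.

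Differences were tested in R 4.3.3 by edgeR 4.0.16: filterByExpr (minimum count 10, minimum total 15), TMM, estimateDisp, glmQLFit and glmQLFTest, two-sided, no covariate, Benjamini-Hochberg over 5878 genes, threshold 0.05. Prior degrees of freedom were 37.5, against 2 residual. Each SE was derived from the log2 fold change and the F statistic (its size over the root of F). CPM divide by the summed counts of the tested genes times the TMM factor, not by the total count, so that CPM summed over all genes came to between 1055420 and 1096520. The procedure was tested on data simulated from its own fitted model, which does not test the origin of the replicates or the mixture of cells. Groups follow the labels, and the labels do not say that replicates were separate embryos, so p-values measure the spread between these samples. Xist counts show that the WT libraries were not made from the same material, while for the knockout-labelled pair the spread may be technical. Their chi-square per degree of freedom was 1.64 in WT against 1.49 in the others, above counting noise. Symbols, lengths and snoRNA positions came from GENCODE M21, snoRNA sequences from its transcripts and start windows from RefSeq.

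Tried instead were size factors by median of ratios, scaling to totals, omission of the filter, a filter of 10 counts in 2 libraries, DESeq2 1.42.0, limma-voom (limma 3.58.1), each library left out in turn, a block for the replicate number, and removal of a loess trend on transcript length (span 0.5). The members and lists were chosen with earlier results of these data known. Genes named are all 10 hosts, Tut1, genes that overlap a host with at least 10 counts, at most 3 called genes per list or else the 2 of smallest p, and the 3 genes nearest in pattern. Outside this rule, and after values were seen, Xist, Emx1, Pax6, Gap43, Fabp7, C1qa, Trem2, Fcer1g, Gm22711 and Snord87 were named.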

Additional observations from a re-analysis of the deposited data

How the results depend on the processing

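No snoRNA host gene was called under any of the 12 alternatives, and Gas5, Snhg4 and Snhg15 kept their direction in all of them. For Gas5, Snhg4 and Snhg15 the CPM of the groups did not overlap, so leaving out 1 library could hardly turn their direction. The other settings refit the same 4 libraries, so the kept direction is a weak check. Snhg1 came to -0.0015 without WT replicate 2 and Snhg6 to -0.0050 without replicate 1 labelled knockout, values that give no direction. Snhg5 ranged from -0.014 without replicate 1 labelled knockout, a reversal, to 0.21 without replicate 2 labelled knockout. The median of the tested hosts lay between -0.35 and -0.12 when a library was left out, with -0.12 without WT replicate 2 and -0.13 without replicate 1 labelled knockout. The number of genes called over all tested genes was 121 and fell to 12 with DESeq2 and to 76 with the replicate number as a block. It lay between 3 and 108 when a library was left out, at 75 without WT replicate 1, 108 without WT replicate 2, 3 without replicate 1 labelled knockout and 35 without replicate 2 labelled knockout. For the last 4 the fit has fewer libraries, and the lone library of a group is assumed to vary like the others; otherwise the cause was not tested. Scaling by total counts only moved the share of higher calls from 67.8% to 81.4%. Replicates share only a number: deviations of same-numbered libraries correlated at -0.06, and the block changed no call of a host, with an adjusted p of 0.153 for Snhg15. Low counts limit the hosts, since 4 of the 10 had too few counts to be tested and Snhg15 had 2 and 4 counts in WT. Whether sequencing depth or the processing of reads set these counts was not tested.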
